A study of Mus musculus with 6 samples.

Results

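The 36 genes described here encode titin and the proteins that anchor, cap, cross-link and maintain the sarcomere at the Z disc and the M band, and they were chosen by name from the 24315 rows of the FPKM table. FPKM is a fragment count scaled by transcript length and by the mapped fragments of the library. All 36 were found, and all 36 passed the filter on low values (a mean of at least 1 FPKM over the 6 libraries). The libraries came from whole hearts of 6-week-old male mice on a C57Bl6J background, a single heart for each library. In 3 mice (cKO) both cyclin C alleles were floxed and a Cre recombinase was present under the alpha myosin heavy chain promoter, aMHC, which is active in heart muscle cells. The other 3 mice (fl/fl) carried the floxed alleles without Cre, so Cre and the deletion differed together. The comparison asks how loss of cyclin C, the cyclin of the Mediator kinase module, from cardiomyocytes was reflected in these transcripts.

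Sarcomeres are bounded by Z discs, where alpha-actinin cross-links the actin filaments of neighbouring sarcomeres. Titin runs from the Z disc through the I band and along the myosin filament to the M band, where myomesins join the myosin filaments. Many Z disc and I band proteins also bind signalling or transcription factors, and several of them, such as Ankrd1 and Csrp3, are known to respond to mechanical load in the heart.

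Cyclin C itself (Ccnc) read 5.81, 5.70 and 4.53 FPKM in cKO 1 to 3, against 8.48, 7.60 and 10.8 FPKM in fl/fl 1 to 3, without overlap; its limma adjusted p over all genes was 0.144, and q was 0.161 in the authors' deposited table. A gene-level value does not separate transcripts with and without the floxed part. The sum of FPKM ran from 589196 to 616158 in cKO and from 627881 to 768960 in fl/fl libraries, and the read depth behind each value is unknown. Summed ventricular cardiomyocyte markers (10 genes, among them Myl2 and Tnnt2) ran from 48640 to 53990 FPKM in cKO and from 71410 to 96960 FPKM in fl/fl hearts, and 8 of the 10 had a negative log2 change. Among them Mb (limma adjusted p = 0.0367) and Ryr2 (limma adjusted p = 0.00604) passed the threshold of 0.05, both lower in cKO. Summed atrial markers (7 genes) ran from 1211 to 4207 FPKM in cKO and from 3568 to 6317 FPKM in fl/fl hearts, all 7 with a negative sign. Of these, Bmp10 passed the same threshold (limma adjusted p = 0.000629). Summed smooth muscle and pericyte markers (7 genes) ran from 737.6 to 910.1 FPKM in cKO and from 375.3 to 392.7 FPKM in fl/fl hearts. Acta2, smooth muscle actin, made up most of that sum (548.5 FPKM on average in cKO and 96.1 FPKM in fl/fl hearts) and was higher in limma, while 4 of the 7 had a negative sign, and the median log2 change of the list was -0.28. Summed fibroblast markers (7 genes) ran from 996.5 to 1155 and from 850.1 to 983.6 FPKM in cKO and fl/fl hearts, and endothelial markers (6 genes) from 391.9 to 514.7 and from 316.2 to 352.5 FPKM. All 7 fibroblast and all 6 endothelial markers had a positive sign, and 0 of them passed the limma threshold. Dcn made up most of the fibroblast sum (717.2 FPKM on average in cKO and 628.1 FPKM in fl/fl hearts). Many members are also expressed in skeletal muscle, so its markers were examined: 8 genes summed to 3.87 to 6.67 FPKM in cKO and 5.52 to 10.6 FPKM in fl/fl hearts, and the skeletal myosins Myh1, Myh2 and Myh4 did not exceed 0.052 FPKM in any library. The fl/fl 1 library held thymocyte transcripts (4 genes summing to 40.7 FPKM, at most 2.36 FPKM in each other library) and fl/fl 2 held lung transcripts (4 genes summing to 18.3 FPKM, and to 4.08 FPKM in fl/fl 1). Of the 5 adipocyte markers examined, Adipoq, Cidec, Plin1 and Retn also stood apart in fl/fl 1. Adipoq read 56.4 FPKM there and at most 3.16 FPKM in each other library. Fabp4, the most abundant of the 5, did not stand apart: its 1800 FPKM in fl/fl 1 was close to fl/fl 2 (1807) and cKO 3 (1794). The sum of the 5 was 1930 FPKM in fl/fl 1, near that of fl/fl 2 (1814) and of cKO 3 (1795). In whole-heart RNA, fewer cells of a type and less RNA per cell cannot be told apart, and the part of these marker shifts in the results below was not tested.

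In cKO hearts the Z disc transcripts of myotilin (Myot), telethonin (Tcap) and muscle LIM protein (Csrp3) were lower. Those of the M band protein Obsl1 and the Xin repeat protein Xirp2 were lower too. Transcripts of the stress-responsive ankyrin repeat protein Ankrd1, the PDZ-LIM protein Pdlim7, myopalladin (Mypn) and filamin C (Flnc) were higher. For titin, the myomesins, desmin and the myosin chaperone Unc45b the groups overlapped. In limma over all genes 0 of the 36 members passed an adjusted p of 0.05, while 0.587% of the 12103 tested genes passed it (0.364% higher and 0.223% lower in cKO). At an unadjusted p under 0.05 there were 14 members, 5 higher and 9 lower, against 12.7% of all tested genes (6.34% higher and 6.37% lower). The authors' deposited table, made with Cuffdiff, called 10 of the 36 members, 4 higher and 6 lower in cKO, where 3.77% of its 12587 tested genes were called (1.68% higher and 2.08% lower). Cuffdiff and limma model the spread between animals differently. In the main limma fit, on genotype alone, none of the calls credited below to the authors' table was made, except that of Klhl40.

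Every cKO library lay above every fl/fl library for 5 members, and every cKO library lay below for 10. These 15 members are 41.7% of the 36. The same separation was seen for 20.4% of all tested genes, 10.1% higher and 10.3% lower in cKO. With quantile normalization the count was 12 members, split into 6 higher and 6 lower, with 21.2% of all genes. Over the 36 members 22 had a negative and 14 a positive log2 change of FPKM + 1. Their median log2 change was -0.087, and the median over all tested genes was -0.002. Together the members held 2.18%, 2.14% and 2.03% of the FPKM sum in cKO 1 to 3, against 2.31%, 2.26% and 2.29% in fl/fl 1 to 3, so the highest cKO share stayed under the lowest fl/fl share. This separation rested on Tcap, the most abundant member by the mean over the 6 libraries (1349 FPKM on average in cKO and 2838 FPKM in fl/fl hearts). In cKO hearts Ankrd1 (1563 FPKM), Csrp3 (1496 FPKM) and Fhl2 (1370 FPKM) averaged more than Tcap. With Tcap taken out of the sum, the shares overlapped between genotypes. The median coefficient of variation of the members was 8.77% in cKO and 12.6% in fl/fl hearts, against 9.35% and 13.4% over all tested genes. Tcap (40.3% in cKO and 39.9% in fl/fl hearts) and Ankrd23 (37.8% and 59.2%) varied most among the members. Of the 36, 12 were highest in fl/fl 2 and another 12 in fl/fl 3 (33.3% each), against 28.6% and 15.8% of all tested genes, and 13 were lowest in cKO 3 (36.1%, against 19.9% of all tested genes).

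**Figure D1:**
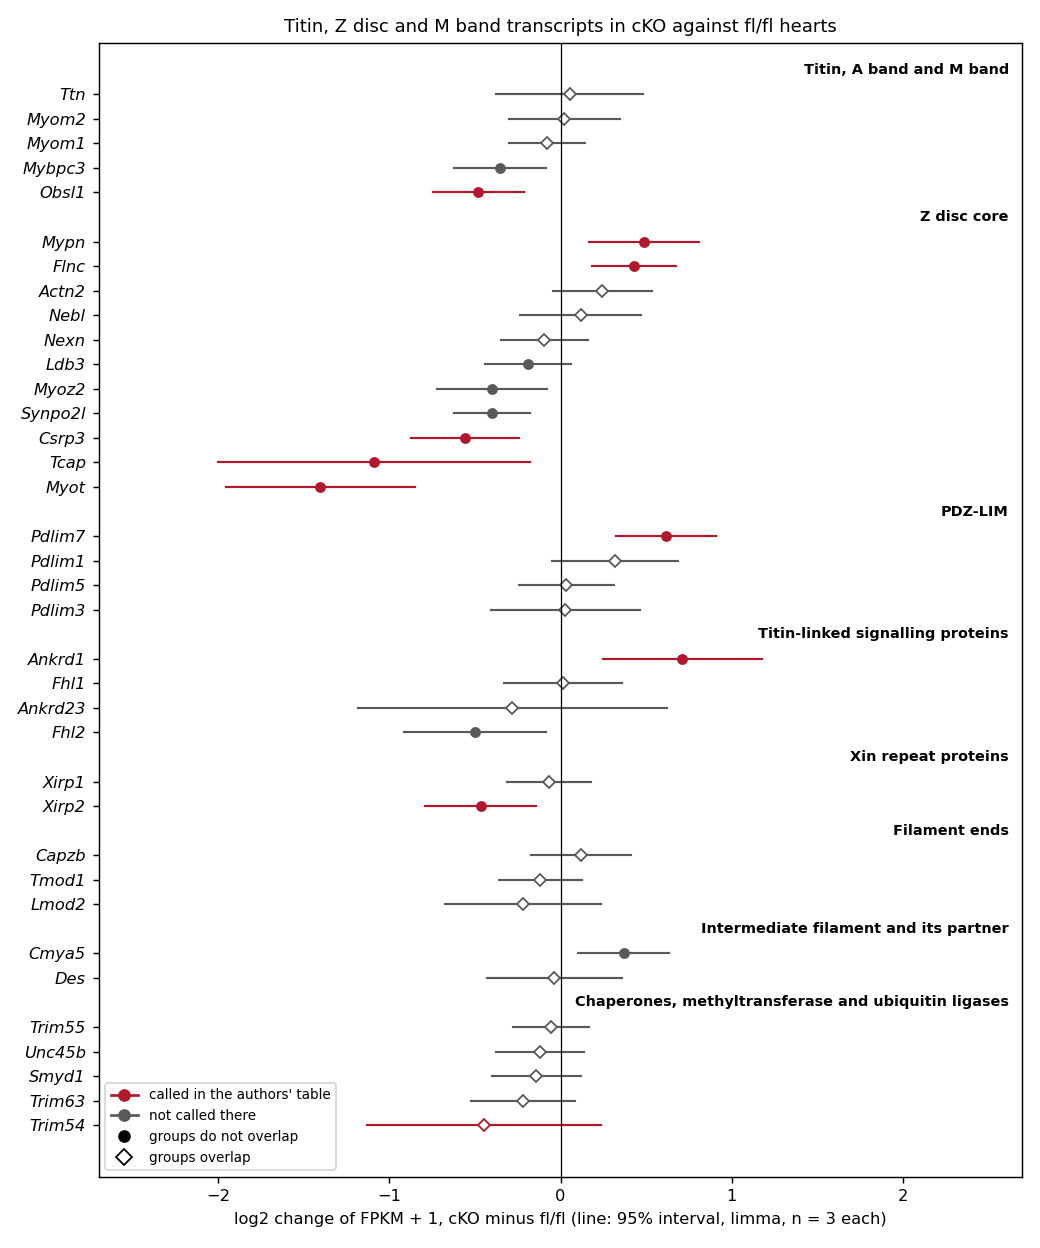
Log2 change of FPKM + 1 (x axis, cKO minus fl/fl) of the 36 members (y axis), grouped by role, with the 95% interval from limma over 3 libraries each. Red marks the 10 members called in the authors' deposited table and filled circles the 15 members whose groups did not overlap; Myot at -1.40 and Ankrd1 at 0.71 are the ends of the range.

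**Figure D2:**
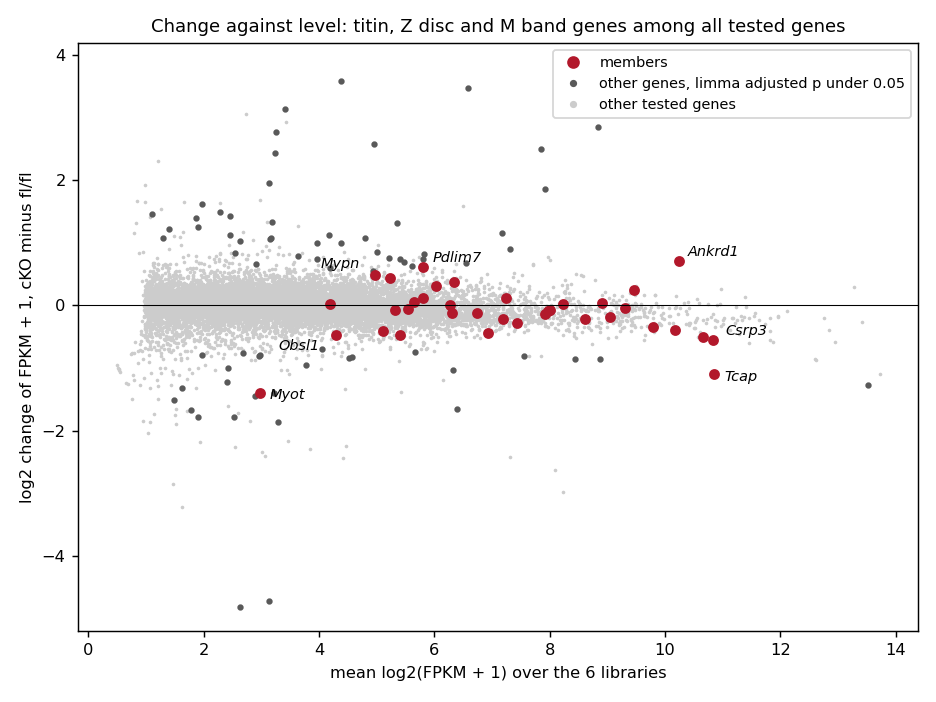
Log2 change of FPKM + 1 (y axis, cKO minus fl/fl) against the mean log2(FPKM + 1) over the 6 libraries (x axis) for all 12103 tested genes, with the 36 members in red and the 71 genes past the limma threshold in dark grey. The members are mostly abundant transcripts, and each of them lies between -1.40 and 0.71.

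Titin (Ttn), the spring and ruler of the sarcomere, read 55.5, 59.4 and 37.5 FPKM in cKO 1 to 3, against 53.0, 40.0 and 51.9 FPKM in fl/fl 1 to 3. The groups overlapped, with the lowest and the highest value both in cKO hearts. The log2 change was 0.05 with a 95% interval of -0.37 to 0.48 (limma adjusted p = 0.925), so the data leave room for changes of that size in either direction. The M band cross-linkers myomesin 1 (Myom1) and myomesin 2 (Myom2) averaged 250.8 ± 16.8 and 303.6 ± 42.0 FPKM in cKO hearts, and 264.9 ± 7.19 and 298.6 ± 37.5 FPKM in fl/fl hearts (SD, n = 3 each). Neither passed the limma threshold, and their groups overlapped.

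Myosin-binding protein C (Mybpc3), which lies on the myosin filament of the A band, read 752.5, 817.7 and 778.0 FPKM in cKO 1 to 3, against 906.9, 1017 and 1081 FPKM in fl/fl 1 to 3. All 3 cKO libraries were below all fl/fl libraries, a ratio of 0.782 (log2 change -0.35, SE 0.12, limma adjusted p = 0.282), and the authors' deposited table did not call it (q = 0.392). With quantile normalization its log2 change was -0.22. Obsl1, a protein that binds titin and myomesin at the M band, read 15.0, 16.3 and 15.5 FPKM in cKO 1 to 3, against 20.2, 26.0 and 20.5 FPKM in fl/fl 1 to 3. The cKO libraries lay close together and below the fl/fl libraries. This was a log2 change of -0.48 (SE 0.12), with q = 0.0244 in the authors' deposited table and a limma adjusted p of 0.158.

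Of the 11 core Z disc members, the authors' deposited table called 5, with 2 higher (Mypn and Flnc) and 3 lower (Myot, Tcap and Csrp3) in cKO, and 8 had groups that did not overlap; over all genes 3.77% were called and 20.4% did not overlap. Myotilin (Myot), which binds alpha-actinin and filamin, was the least abundant of the 36. It read 3.29, 4.88 and 3.50 FPKM in cKO 1 to 3, against 8.73, 17.6 and 10.6 FPKM in fl/fl 1 to 3. Each cKO library was well under the lowest fl/fl value. On average Myot was 3.17-fold lower in cKO hearts (log2 change -1.40, SE 0.24), the largest fold among the members. Myot had the lowest limma adjusted p of the 36 (0.0603), and its q in the authors' deposited table was 0.00301.

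Telethonin (Tcap), which caps the titin ends in the Z disc, read 1632, 1692 and 722.6 FPKM in cKO 1 to 3, against 2865, 3956 and 1693 FPKM in fl/fl 1 to 3. The groups only just failed to overlap, since cKO 2 and fl/fl 3 were nearly equal, and replicate 3 was the lowest library of both genotypes. The mean was 2.10-fold lower in cKO, with q = 0.00301 in the authors' deposited table. The log2 change was -1.09 (SE 0.40, limma adjusted p = 0.319), and it was -0.69 without cKO 3.

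Csrp3, the muscle LIM protein that binds Tcap and alpha-actinin, read 1513, 1541 and 1433 FPKM in cKO 1 to 3, against 1912, 2406 and 2328 FPKM in fl/fl 1 to 3. The 3 cKO libraries were nearly alike and all lower. The ratio of means was 0.675 and the log2 change -0.56 (SE 0.14), with q = 0.0143 in the authors' deposited table and a limma adjusted p of 0.164; with quantile normalization the log2 change was -0.33. Myoz2 (calsarcin-1), which tethers calcineurin to the Z disc, read 1072, 1010 and 931.1 FPKM in cKO 1 to 3, against 1210, 1558 and 1231 FPKM in fl/fl 1 to 3. Its groups did not overlap either, at a ratio of 0.754, and it passed neither test (limma adjusted p = 0.304; q = 0.129 in the authors' deposited table). Synpo2l, an actin-binding Z disc protein, read 32.1, 28.7 and 26.6 FPKM in cKO 1 to 3, against 39.5, 39.0 and 37.5 FPKM in fl/fl 1 to 3. Here too the groups were apart, and neither test called it (limma adjusted p = 0.158; q = 0.0863 in the authors' deposited table). Ldb3 (cypher or ZASP), which links alpha-actinin to signalling proteins, averaged 496.3 ± 7.53 FPKM in cKO and 568.3 ± 54.4 FPKM in fl/fl hearts (SD, n = 3 each). Its groups did not overlap, but with quantile normalization they did, as they did for Mybpc3, Tcap and Fhl2.

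Myopalladin (Mypn), a relative of myotilin that links nebulin-family proteins to alpha-actinin, read 42.8, 38.2 and 28.9 FPKM in cKO 1 to 3, against 25.0, 26.0 and 25.4 FPKM in fl/fl 1 to 3. The fl/fl libraries were almost identical and all cKO libraries lay above them, cKO 3 by the least. Its log2 change was 0.49 (SE 0.14), with q = 0.00936 in the authors' deposited table and a limma adjusted p of 0.228. Filamin C (Flnc), the muscle actin cross-linker, read 46.7, 39.6 and 41.9 FPKM in cKO 1 to 3, against 32.0, 28.3 and 34.1 FPKM in fl/fl 1 to 3. These groups did not overlap. The log2 change was 0.43 (SE 0.11), with q = 0.0471 in the authors' deposited table and a limma adjusted p of 0.167.

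The main Z disc cross-linker, alpha-actinin 2 (Actn2), read 790.9, 813.0 and 711.1 FPKM in cKO 1 to 3, against 606.1, 744.2 and 608.4 FPKM in fl/fl 1 to 3. The groups overlapped through fl/fl 2, and the log2 change was 0.25 with a 95% interval of -0.05 to 0.54 (limma adjusted p = 0.456). With quantile normalization the groups of Actn2 did not overlap, and its log2 change was 0.40 (limma adjusted p = 0.0587). Nebulette (Nebl), the cardiac nebulin relative that binds actin near the Z disc, and nexilin (Nexn), an actin-binding protein, differed by less than the spread between libraries, with log2 changes of 0.12 and -0.09. The files place Mir6419 on the stretch of Nebl.

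**Figure D3:**
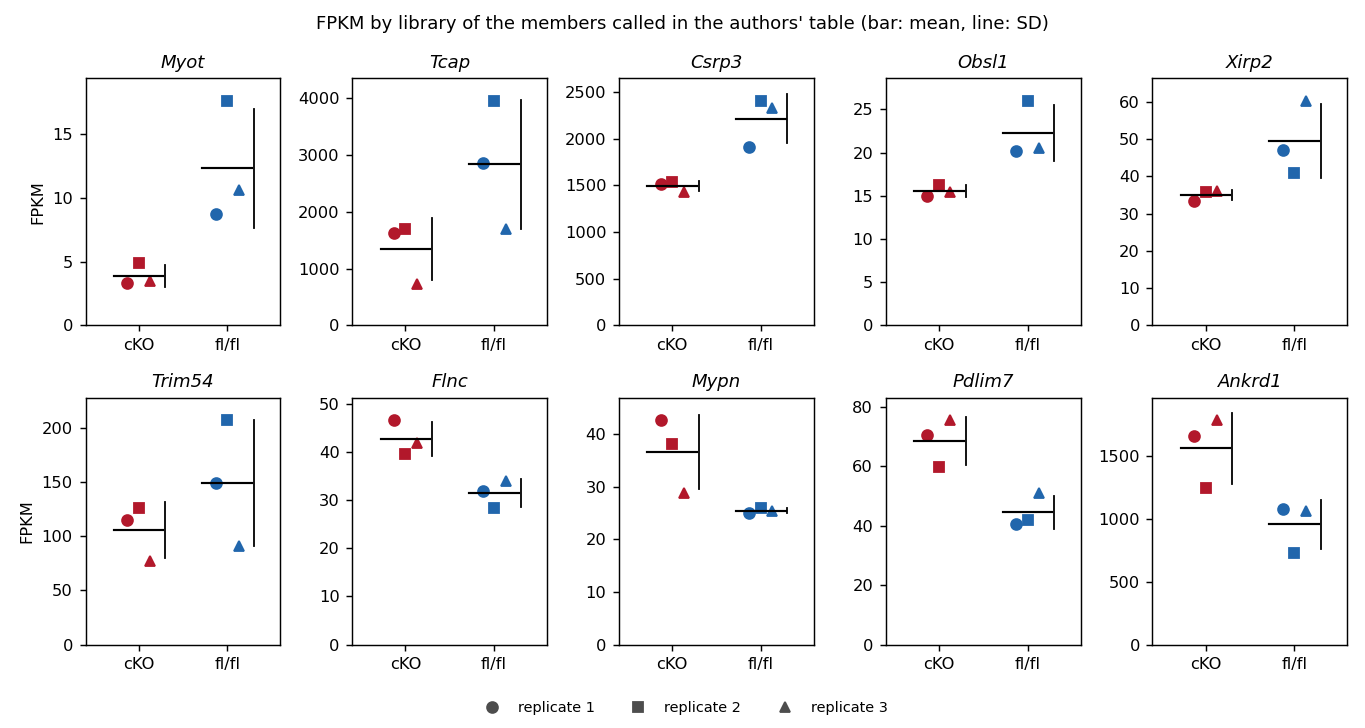
FPKM (y axis, starting at 0) in each library of the 10 members called in the authors' deposited table, with cKO in red and fl/fl in blue, the marker shape giving the replicate number, the bar the mean and the thin line the SD (n = 3). Groups overlap for Trim54, and Tcap is lowest in replicate 3 of both genotypes.

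Besides Ldb3, which has both domains and was lower in each cKO library, 4 members are PDZ-LIM proteins of the Pdlim series, adaptors that bind alpha-actinin through a PDZ domain and kinases or transcription factors through LIM domains. These 4 had a positive sign, which for Pdlim3 and Pdlim5 turned on leaving out some single libraries. The authors' deposited table called 1 of the 4, where 3.77% of all genes it tested were called. Pdlim7 (enigma) read 70.7, 59.8 and 75.7 FPKM in cKO 1 to 3, against 40.7, 41.8 and 51.0 FPKM in fl/fl 1 to 3. No cKO library came down to the fl/fl range. The mean was 1.54-fold higher, a log2 change of 0.61 (SE 0.13), with q = 0.00936 in the authors' deposited table and a limma adjusted p of 0.112. The files place a microRNA, Mir6945, on the same stretch as Pdlim7. Pdlim1 averaged 72.1 ± 10.4 FPKM in cKO and 58.0 ± 12.0 FPKM in fl/fl hearts, with overlap (SD, n = 3 each). Pdlim5, the most abundant of these 4, read 482.3, 497.7 and 483.9 FPKM in cKO 1 to 3, against 414.0, 491.3 and 531.7 FPKM in fl/fl 1 to 3. The cKO values lay inside the wider fl/fl range. Pdlim3, the least abundant of these 4, read 23.0, 16.9 and 13.8 FPKM in cKO 1 to 3, against 14.9, 20.7 and 16.2 FPKM in fl/fl 1 to 3, and here the cKO values were the more scattered.

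Among the titin-linked signalling proteins, Ankrd1 (cardiac ankyrin repeat protein), which binds the N2A region of titin in the I band and also enters the nucleus, read 1658, 1243 and 1788 FPKM in cKO 1 to 3, against 1081, 731.6 and 1060 FPKM in fl/fl 1 to 3. Replicate 2 was the lowest of each genotype, and even so cKO 2 lay above all fl/fl libraries. The mean was 1.63-fold higher in cKO, the largest upward fold of the 36. On the log2 scale this was 0.71 (SE 0.20), with q = 0.00301 in the authors' deposited table and a limma adjusted p of 0.227. Its relative Ankrd23, which binds the same titin region, read 114.8, 140.0 and 231.1 FPKM in cKO 1 to 3, against 145.8, 130.3 and 352.5 FPKM in fl/fl 1 to 3, with wide overlap and the highest value of each genotype in replicate 3. Fhl2, a LIM-only protein that docks metabolic enzymes on titin, read 1193, 1501 and 1416 FPKM in cKO 1 to 3, against 1553, 1971 and 2350 FPKM in fl/fl 1 to 3. These groups did not overlap, but cKO 2 and fl/fl 1 were close, and the log2 change of -0.50 (SE 0.18) passed neither test (limma adjusted p = 0.314; q = 0.0664 in the authors' deposited table). With quantile normalization it was -0.31. Fhl1, the least abundant of these 4, read 75.2, 89.5 and 66.1 FPKM in cKO 1 to 3, against 66.0, 90.0 and 73.0 FPKM in fl/fl 1 to 3, with overlap and replicate 2 the highest of each genotype.

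Of the Xin repeat proteins, actin-binding proteins of the intercalated disc and the Z disc, Xirp2 read 33.4, 35.7 and 36.0 FPKM in cKO 1 to 3, against 47.1, 40.8 and 60.3 FPKM in fl/fl 1 to 3. The cKO values were tight and all below the scattered fl/fl values. This gave a log2 change of -0.47 (SE 0.14), with q = 0.0216 in the authors' deposited table and a limma adjusted p of 0.25. Xirp1 read 39.8, 34.7 and 39.8 FPKM in cKO 1 to 3, against 35.7, 41.0 and 43.3 FPKM in fl/fl 1 to 3, with overlap.

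The proteins that set the ends of the actin filaments (3 genes) gave 0 calls in either test, and their groups overlapped. Over all tested genes 0.587% were called in limma and 3.77% in the authors' table, and 20.4% did not overlap. Tropomodulin (Tmod1), which caps the pointed end, read 104.9, 96.4 and 104.7 FPKM in cKO 1 to 3, against 100.7, 108.6 and 124.1 FPKM in fl/fl 1 to 3. Leiomodin 2 (Lmod2), which lengthens filaments there, read 439.6, 396.4 and 276.5 FPKM in cKO 1 to 3, against 481.1, 456.0 and 346.0 FPKM in fl/fl 1 to 3, with replicate 3 the lowest of each genotype. Capzb, a subunit of the capping protein of the barbed end, had a log2 change of 0.12. Tmod1 shares its stretch in the files with Tstd2. Desmin (Des), the intermediate filament that ties Z discs together, read 657.4, 655.3 and 558.4 FPKM in cKO 1 to 3, against 591.8, 818.2 and 535.2 FPKM in fl/fl 1 to 3, with overlap. In the files Des shares its stretch with Gm15179. Its partner Cmya5 (myospryn) read 86.6, 106.5 and 82.9 FPKM in cKO 1 to 3, against 67.6, 74.7 and 69.4 FPKM in fl/fl 1 to 3. Every cKO library was higher, at a ratio of 1.30, but Cmya5 passed neither test (limma adjusted p = 0.26; q = 0.226 in the authors' deposited table). The files place A630019I02Rik and Gm4814 on the stretch of Cmya5.

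All 5 genes of the assembly and turnover group had a negative sign (for Trim55 not within replicates 1 and 2), and their groups overlapped. The authors' table called 1 of the 5, where 3.77% of all genes it tested were called. Over all tested genes 20.4% did not overlap. The myosin chaperone Unc45b averaged 74.5 ± 3.17 FPKM in cKO and 81.5 ± 10.1 FPKM in fl/fl hearts (SD, n = 3 each), and the files place Slfn5 and Slfn5os on its stretch. Smyd1, a methyltransferase that acts on myosin assembly, read 232.1, 239.2 and 218.2 FPKM in cKO 1 to 3, against 226.8, 250.5 and 286.6 FPKM in fl/fl 1 to 3, with overlap through fl/fl 1. Of the muscle RING finger ubiquitin ligases, Trim63 (MuRF1), a marker of muscle atrophy, averaged 134.6 ± 5.84 FPKM in cKO and 158.4 ± 27.3 FPKM in fl/fl hearts (SD, n = 3 each). Trim55 (MuRF2) read 43.9, 48.3 and 41.5 FPKM in cKO 1 to 3, against 45.6, 44.1 and 49.3 FPKM in fl/fl 1 to 3, with overlap. Trim54 (MuRF3) read 114.3, 125.4 and 76.9 FPKM in cKO 1 to 3, against 148.8, 206.9 and 90.9 FPKM in fl/fl 1 to 3. Its groups overlapped, because fl/fl 3 was lower than cKO 1 and cKO 2, although the authors' deposited table called it (q = 0.0216); in limma its adjusted p was 0.559, and the log2 change of -0.44 (SE 0.30) was -0.17 without fl/fl 2, -0.23 without cKO 3, -0.76 without fl/fl 3 and -0.24 with array weights.

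Libraries numbered 3 stood apart in clock genes in both genotypes. Dbp, a target of the circadian clock, read 8.91 FPKM in cKO 3 and 22.8 FPKM in fl/fl 3, and at least 93.6 FPKM in the other 4 libraries. Replicate 3 was the lowest library of both genotypes for 8 members, among them Tcap and Trim54, and the highest of both for 4, Ankrd23, Pdlim1, Pdlim7 and Xirp2. Over all tested genes the shares were 17.4% lowest and 16.9% highest, against 22.2% and 11.1% of the members. With replicate 3 against replicates 1 and 2 as a term, Tcap (adjusted p = 0.0399), Myot (0.0423) and Pdlim7 (0.0342) passed limma, 3 of the 36 members, where 1.02% of all genes passed. The labels name no batch, so this term follows the replicate number alone. Within replicates 1 and 2 alone 0 members passed in limma, where 0.107% of all genes passed, and the log2 changes were -1.02 for Tcap, -1.42 for Myot, 0.64 for Pdlim7 and 0.69 for Ankrd1. Between the pair numbered 3 there is 1 animal of each genotype, so no test can be made; there the cKO library was at 0.427 times the fl/fl library for Tcap, 0.33 times for Myot, 1.48 times for Pdlim7 and 1.69 times for Ankrd1.

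**Figure D4:**
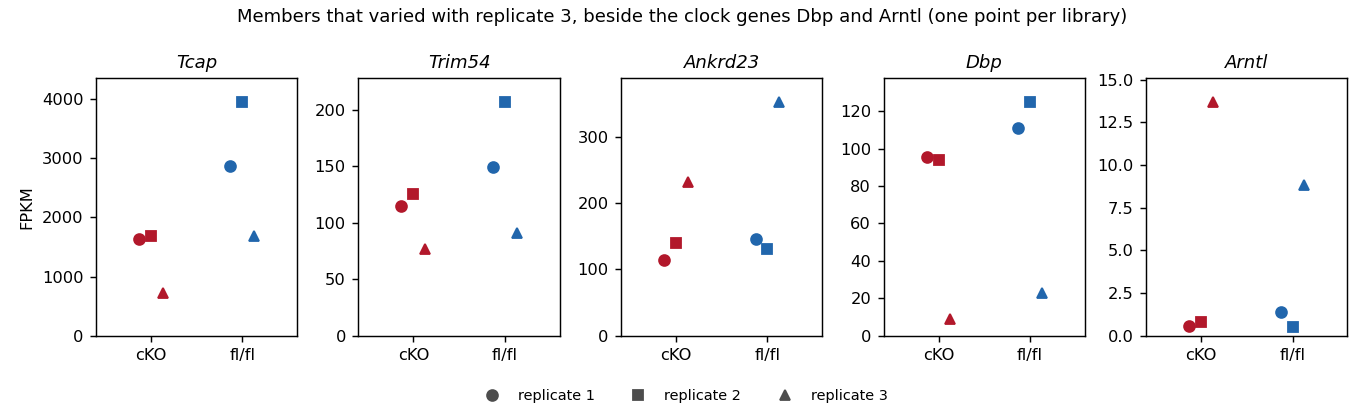
FPKM (y axis, starting at 0) in each library for Tcap, Trim54 and Ankrd23 beside the clock genes Dbp and Arntl, with cKO in red and fl/fl in blue and the marker shape giving the replicate number. Triangles, replicate 3, are the lowest points of both genotypes for Tcap, Trim54 and Dbp and the highest for Ankrd23 and Arntl.

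Ratios of related transcripts within a library do not depend on a scaling factor applied to the whole library. The pairs were chosen after the values were seen, so they are given without a test. The ratio of Myot to its relative Mypn was 0.077, 0.128 and 0.121 in cKO 1 to 3, against 0.349, 0.680 and 0.417 in fl/fl 1 to 3, a difference of -2.13 in mean log2 ratio. The ratio of Tcap to Actn2 was 2.06, 2.08 and 1.02 in cKO 1 to 3, against 4.73, 5.32 and 2.78 in fl/fl 1 to 3. The ratio of Myoz2 to Actn2 was 1.36, 1.24 and 1.31 in cKO 1 to 3, against 2.00, 2.09 and 2.02 in fl/fl 1 to 3, with little spread inside either genotype. In these 3 pairs the genotypes did not overlap, and the first gene was lower relative to its partner in cKO hearts. The same held for Fhl2 to Fhl1 and Csrp3 to Csrp1, while Ankrd1 to Ankrd23 and Pdlim7 to Pdlim5 were higher in each cKO library. The ratios of Xirp2 to Xirp1, of Flnc to Flna and of Mybpc3 to Ttn overlapped between genotypes. A changed ratio shows unequal change of 2 transcripts, and not that either stayed constant.

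**Figure D5:**
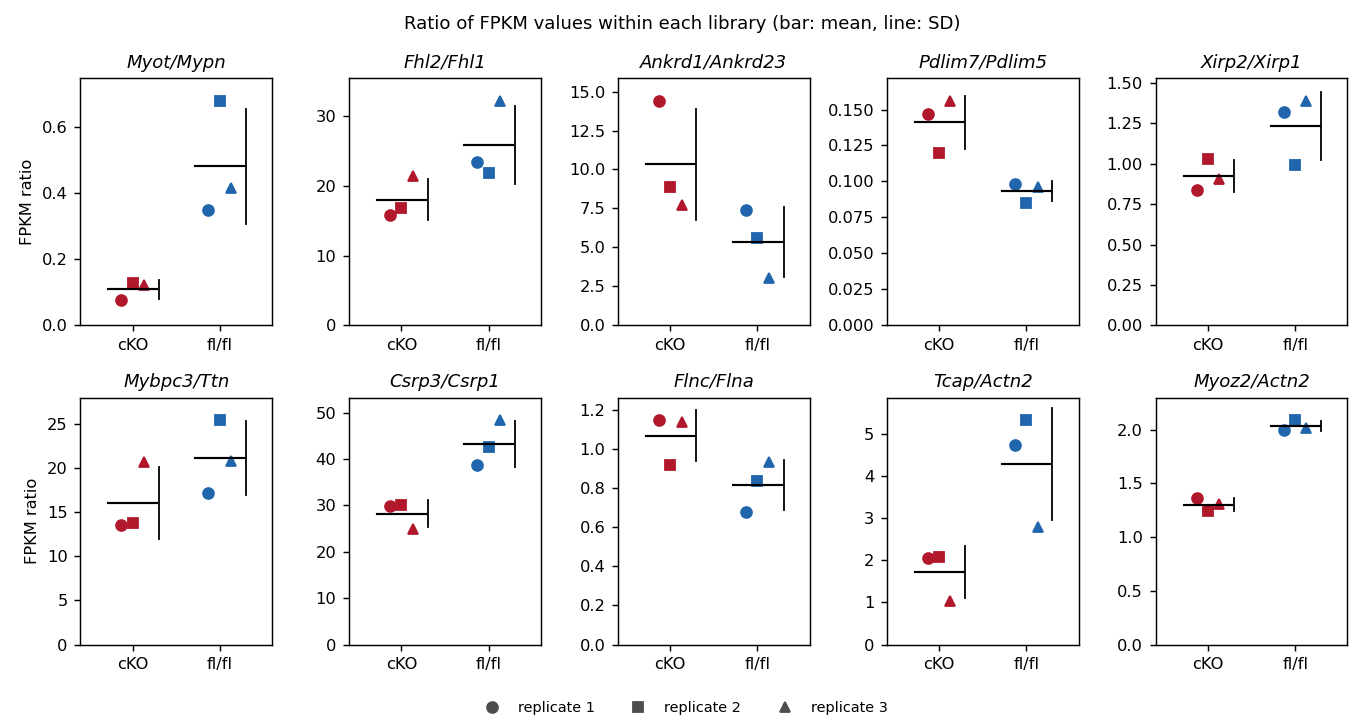
Ratio of the FPKM of 2 genes within each library (y axis, starting at 0) for 10 pairs, with cKO in red and fl/fl in blue, the marker shape giving the replicate number, the bar the mean and the thin line the SD (n = 3). The ratio of Myoz2 to Actn2 lies between 1.24 and 1.36 in cKO and between 2.00 and 2.09 in fl/fl hearts; Xirp2 to Xirp1, Flnc to Flna and Mybpc3 to Ttn overlap.

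A list of 61 further genes of the Z disc, the M band and titin was read in the same fit, and 53 of them passed the filter. In limma 1 of the 53 fell and 0 rose, where 0.587% of all tested genes were called. The gene that fell was Klhl40, a kelch protein known in skeletal muscle to stabilise nebulin and leiomodin 3. Klhl40 read 4.83, 4.49 and 5.42 FPKM in cKO 1 to 3, against 8.06, 9.15 and 11.0 FPKM in fl/fl 1 to 3. The groups were apart, and the log2 change was -0.81 (SE 0.13, limma adjusted p = 0.046). The call was lost on leaving out any one of the 6 libraries, with adjusted p from 0.0742 to 0.201, and also with a pseudocount of 5 (log2 change -0.53), no filter, libraries scaled to the same median log2 ratio, no intensity trend, or within replicates 1 and 2. The authors' deposited table called 5 of the 53, 0 higher and 5 lower, against 3.77% of all genes it tested. Besides Klhl40 they were Mybpc2, the fast-muscle relative of Mybpc3 (4.31 ± 0.99 FPKM in cKO and 8.56 ± 0.38 FPKM in fl/fl hearts), and Csrp2, a relative of Csrp3 (36.7 ± 4.89 and 57.8 ± 3.66 FPKM). The other two were the formin Fhod3, which acts in sarcomere assembly (44.7 ± 2.56 FPKM in cKO and 68.0 ± 7.43 FPKM in fl/fl hearts), and Klhl41 (27.8 ± 2.92 and 40.8 ± 4.76 FPKM; SD, n = 3 each). Their limma adjusted p-values were 0.0549 for Mybpc2, 0.0701 for Csrp2, 0.0699 for Fhod3 and 0.139 for Klhl41. The files place Fhod3 on 1 stretch with Tpgs2. The groups did not overlap for 18 of the 53 (34.0%), 9 in each direction, against 20.4% of all tested genes, and the median log2 change was 0.035.

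Promoter sequences were read for the members that the authors' table called with non-overlapping groups and that have a single start in the RefSeq table of GRCm38.p6, so that the letters around the start of some of the shifted genes can be seen. They are Ankrd1, Pdlim7 and Mypn, higher in cKO, and Obsl1 and Xirp2, lower in cKO. Each window runs 5′ to 3′ on the strand of the gene, from 250 bases before to 50 bases after the start. Capitals mark a match, on either strand, to the TEAD site CATTCC (MCAT), the GATA letters GATAA, the clock E-box CACGTG, the MEF2 box or the CArG box of serum response factor.
Ankrd1, chr19:36119795-36120094, minus strand: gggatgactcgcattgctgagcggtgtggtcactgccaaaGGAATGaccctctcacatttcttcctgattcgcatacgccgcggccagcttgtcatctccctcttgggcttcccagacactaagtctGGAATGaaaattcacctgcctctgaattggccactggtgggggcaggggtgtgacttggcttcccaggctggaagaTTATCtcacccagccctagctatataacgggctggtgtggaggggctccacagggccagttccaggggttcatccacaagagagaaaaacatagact
Pdlim7, chr13:55513397-55513696, minus strand: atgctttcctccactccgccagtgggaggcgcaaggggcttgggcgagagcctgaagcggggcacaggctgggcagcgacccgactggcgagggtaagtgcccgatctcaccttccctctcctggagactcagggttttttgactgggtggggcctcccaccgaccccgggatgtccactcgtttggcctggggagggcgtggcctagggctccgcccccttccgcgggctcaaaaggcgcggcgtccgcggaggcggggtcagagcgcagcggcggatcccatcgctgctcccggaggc
Mypn, chr10:63203903-63204202, minus strand: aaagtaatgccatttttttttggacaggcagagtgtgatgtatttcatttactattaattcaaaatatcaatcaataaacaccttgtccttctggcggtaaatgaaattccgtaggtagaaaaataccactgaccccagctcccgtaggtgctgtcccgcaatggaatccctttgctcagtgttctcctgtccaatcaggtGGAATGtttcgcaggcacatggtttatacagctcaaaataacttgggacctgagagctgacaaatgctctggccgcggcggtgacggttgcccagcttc
Obsl1, chr1:75506403-75506702, minus strand: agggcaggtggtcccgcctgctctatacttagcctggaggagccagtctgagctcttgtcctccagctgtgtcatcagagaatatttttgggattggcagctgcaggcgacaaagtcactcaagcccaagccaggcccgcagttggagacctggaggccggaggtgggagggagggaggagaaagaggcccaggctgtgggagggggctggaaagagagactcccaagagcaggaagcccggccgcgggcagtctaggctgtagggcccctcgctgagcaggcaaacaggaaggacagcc
Xirp2, chr2:67445752-67446051, plus strand: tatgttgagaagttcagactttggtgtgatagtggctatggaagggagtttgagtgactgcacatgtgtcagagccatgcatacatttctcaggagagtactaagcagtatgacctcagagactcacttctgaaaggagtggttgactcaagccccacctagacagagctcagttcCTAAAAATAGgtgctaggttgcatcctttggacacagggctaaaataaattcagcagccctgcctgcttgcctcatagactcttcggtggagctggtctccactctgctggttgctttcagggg
The Ankrd1 window held 2 MCAT matches, at -210 and -123 from the start, and 1 GATA match at -47, all 3 on the opposite strand. The Mypn window held 1 MCAT match at -49, on the opposite strand too, and the Xirp2 window a MEF2 box at -74, whose letters match on both strands. The windows of Pdlim7 and Obsl1 held no match to these letters. RefSeq windows were matched by symbol for 30 of the 36 members, 41 windows in all. MCAT letters stood in 12 of these 41 windows and in 14.7% of all 32851 windows, GATA letters in 13 and 25.4%, the clock E-box in 3 and 7.15%, the MEF2 box in 5 and 0.557%, and the CArG box in 7 and 1.63%. Some members have more than 1 window, and a match does not show that a factor binds there.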

How the data were processed

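Polyadenylated RNA was measured in 6 whole hearts, 3 cKO and 3 fl/fl, grouped and numbered by sample title. Per the labels' protocols, RNA came from flash-frozen tissue by Trizol and went into TruSeq libraries. The submitters' processing notes name TopHat 1.0.0, Cufflinks, Cuffdiff and the mm10 genome. The authors deposited FPKM per gene and library, and a second table with group FPKM, p-values and q-values. For all 36 members the group FPKM was within 1% of the mean of the libraries. FPKM are not counts, so depth is unknown and no count test was made. Whether strand was used in counting is unclear, so rows on a shared stretch may share reads. The lowest value in the file was 0.01 FPKM, and 1 row with a failed value was left out.

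Log2(FPKM + 1) of the 12103 genes with a mean of at least 1 FPKM was tested with limma 3.58.1 in R 4.3.3 (intensity trend, two-sided, no replicate block), with Benjamini-Hochberg adjustment over all 12103 and a threshold of 0.05. On this scale the change of low genes is understated. The fit was tested on simulated data. At a simulated log2 change of 1 in either direction 82% of the changed genes were recovered, and smaller changes were not simulated. Changes were added only to the more abundant genes, in a single draw. The noise was independent between libraries, so a shift shared by the replicate 3 libraries was not simulated. The members and gene lists were chosen with earlier results of these data known. Values in every library are given for members called by limma or the authors, members with non-overlapping groups and a ratio of at least 1.25 or at most 0.8, and the most and least abundant member of a role group, and some others; of the further genes, those called are named. Alternatives changed the pseudocount, the filter, the scaling, the variance model, the weights and the libraries used, and added the replicate number or replicate 3 as a term. Plots were made in matplotlib 3.10.9 (Python 3.11.15).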

Additional observations from a re-analysis of the deposited data

How the results depend on the processing

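The count of genes called in limma was 71, and it was 9 with no filter, 38 with no intensity trend, 123 with replicate 3 against replicates 1 and 2 as a term, 13 within replicates 1 and 2, and 13 to 34 on leaving out 1 library (33 without cKO 1, 13 without cKO 2, 26 without cKO 3, 34 without fl/fl 1, 18 without fl/fl 2 and 33 without fl/fl 3); the authors' deposited q-values gave 474. Members called were 0 in limma, 3 with replicate 3 as a term, 10 by the authors' deposited q-values, and 0 in each other setting but the block, with 1 library left out among them. Of the further Z disc, M band and titin genes 1 was called. The count was 0 with no filter, with libraries scaled to the same median log2 ratio, with no intensity trend or within replicates 1 and 2. It was 0 to 1 on leaving out 1 library. It was 2 with array weights and 3 with quantile normalization, where 78 and 98 of all genes were called. It was 5 with replicate 3 as a term or by the authors' deposited q-values. The replicate numbers were not shown to pair the animals, since the correlation of deviations was 0.089, 0.271 and 0.429 for numbers 1 to 3 and cKO 1 correlated better with fl/fl 2 (0.152). With the replicate block 213 genes (1.76%), 5 of the further genes and 4 members were called (Tcap, Myot, Pdlim7 and Ankrd1).

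Members near 0 changed sign in some settings, and so did Ankrd23 (log2 change -0.28, SE 0.39). Des read 0.0927 with quantile normalization and 0.0737 with array weights, and within replicates 1 and 2 Nexn read 0.0196 and Trim55 0.0373. On leaving out 1 library the log2 change ran from -0.0724 to 0.255 for Ttn, -0.0618 to 0.137 for Myom2, -0.0117 to 0.289 for Nebl, -0.158 to 0.191 for Pdlim3, -0.0669 to 0.113 for Pdlim5, -0.569 to 0.167 for Ankrd23, -0.101 to 0.136 for Fhl1, -0.0114 to 0.198 for Capzb and -0.162 to 0.144 for Des. The other members kept their sign in all settings. The cause of these shifts was not tested. The read depth is unknown, so its part in the precision was not tested. Non-overlapping members numbered 12 with quantile normalization and 16 to 20 on leaving out 1 library, where 28.2% to 34.5% of all genes did not overlap. Within replicates 1 and 2 alone they numbered 21, where 42.3% of all genes did not overlap.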
